A study of Mus musculus with 6 samples.

Results

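Eph receptors, their ephrin ligands, and the Slit, Robo, netrin and Unc5 genes were examined in ovarian surface epithelium, the cell layer that covers the ovary. The members are the genes whose symbol in the platform annotation belongs to these named families, with the probe set of highest mean taken for each gene. They came to 36 of the 22180 named genes, with 9 EphA and 4 EphB receptors, 5 ephrin-A and 3 ephrin-B ligands, 3 Slits, 3 Robos, 5 netrins and 4 Unc5 receptors. All cells came from female Lgr5-eGFP-CreERT2 mice, 8 to 12 weeks old and given no treatment, in which EGFP reports the Lgr5 locus. The EGFP-low cells express EGFP at a low level, so they are not a population without the reporter. They were compared with sorted EGFP-high cells on 3 arrays for each population, with 8 mice pooled for each array. The series calls the 3 arrays technical replicates, so every p-value here measures the spread between arrays and not between animals.

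These families were named for steering axons and also set cell position and boundaries in epithelia and vessels. Ephrins are bound to the membrane, ephrin-A by a lipid anchor and ephrin-B by a transmembrane segment, and they signal to Eph receptor tyrosine kinases on the neighbouring cell. Slits are secreted ligands of Robo receptors, and netrins are laminin-like ligands of Dcc, Neo1 and the Unc5 receptors. In the mouse intestine, EphB receptors are targets of Wnt signalling and hold Lgr5-expressing crypt cells in place. In the human ovary, SLIT and ROBO transcripts have been described in the corpus luteum.

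The values are log2 levels, already normalised by the authors. Across all 41345 probe sets high 2 was the mean of high 1 and high 3, and low 1 followed from the other columns, to within 2e-04. The 6 columns therefore hold 4 independent dimensions. Each difference of group means equals 0.75 of high 1 plus 0.25 of high 3, less the average of the low 2 and low 3 readings. Differences were tested with limma, with group and array set as terms. In these sets, inferred from the values, high 1 is paired to low 1, high 3 to both remaining low arrays, and high 2 has a set to itself. Intervals are 95% limits from that fit, not adjusted for the number of genes, and adjusted p-values are Benjamini-Hochberg over all 22180 genes. An exact permutation of 3 against 3 arrays cannot go below p = 0.10. For Lgr5, the gene that the sort followed, the difference was 1.10 (0.62 to 1.57). Its limma adjusted p was 0.751, so the fit did not call the sorted gene itself. Krt18, a keratin of simple epithelia, had mean readings of 10.43 in the low and 11.05 in the high cells. Probes differ in response, so the level of a gene is not set against that of another, and the labelled tissue was checked only through its markers, each between the populations.

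Robo1, a Slit receptor, read lower in the EGFP-high cells by more than any other member. Epha3, an EphA receptor, also read lower by at least 1.5-fold, and Ephb4, the EphB receptor of veins, read higher by at least 1.5-fold. No member passed the adjusted threshold of 0.05 (0 of 36, smallest limma adjusted p = 0.772), where 0.00451% of all genes did. These 3 were the members with an unadjusted p under 0.05 (8.33%), against 5.92% of all genes. At 1.5-fold or more, 1 member was higher, where 2.19% of all genes were, and 2 were lower, where 2.7% of all genes were. By their mean over the 6 arrays, Robo1 and Epha3 were dim, below the median of all named genes. With such dim genes left out, Ephb4 was the 1 member at 1.5-fold or more. The median difference was −0.015 over the members and 0.025 over all named genes, with 17 members above 0 and 19 below.

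**Figure D1:**
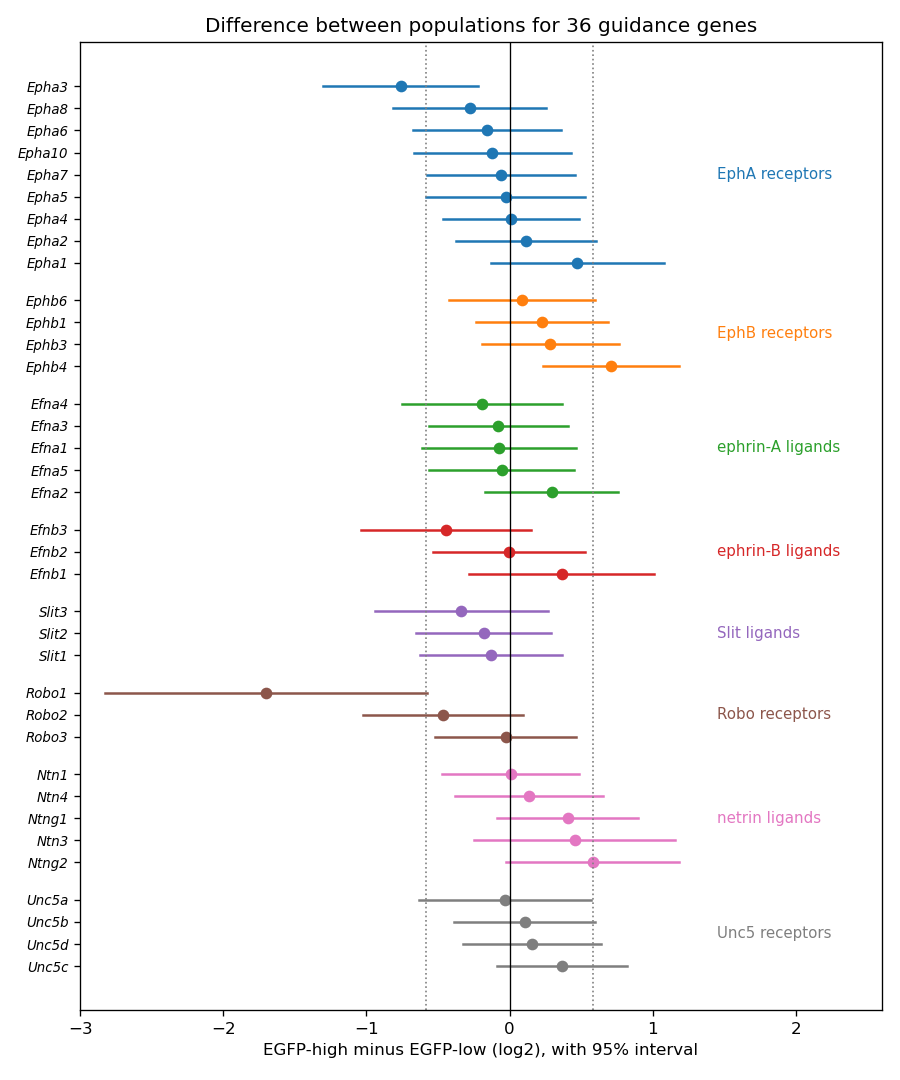
Difference between EGFP-high and EGFP-low cells for each of the 36 genes, on the log2 scale, by family. Points are differences of group means over 3 arrays each, bars are 95% intervals from limma with group and array set, and dotted lines mark 1.5-fold. The intervals of Robo1, Epha3 and Ephb4 exclude 0, and all others span it.

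The promoters of these 3 genes are shown because they are the members whose readings differed by at least 1.5-fold, Robo1 and Epha3 in the same direction and Ephb4 in the other. Each run holds 250 bases before and 50 bases after a RefSeq transcript start, 5′ to 3′ on the gene's strand, in build GRCm38.p6. Capitals mark the GC box, GGGCGG or its reverse complement CCGCCC. The Robo1 window (chr16:72662899-72663198, plus strand) is at a start that is not the 5′ end of the annotated gene. The Epha3 window (chr16:63864126-63864425, minus strand) and the Ephb4 window (chr5:137349859-137350158, plus strand) are at the 5′ ends of theirs.
Robo1: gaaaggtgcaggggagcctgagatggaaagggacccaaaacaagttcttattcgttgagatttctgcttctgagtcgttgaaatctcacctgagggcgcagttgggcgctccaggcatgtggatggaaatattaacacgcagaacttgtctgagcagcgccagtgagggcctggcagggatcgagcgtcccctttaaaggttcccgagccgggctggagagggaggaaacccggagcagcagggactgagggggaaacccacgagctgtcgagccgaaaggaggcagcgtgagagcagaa
Epha3: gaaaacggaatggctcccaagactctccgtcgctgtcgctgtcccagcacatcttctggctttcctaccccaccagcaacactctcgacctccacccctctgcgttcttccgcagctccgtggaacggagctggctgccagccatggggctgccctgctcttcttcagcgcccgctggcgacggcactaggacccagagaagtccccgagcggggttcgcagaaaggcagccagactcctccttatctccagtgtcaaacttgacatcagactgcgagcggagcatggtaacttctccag
Ephb4: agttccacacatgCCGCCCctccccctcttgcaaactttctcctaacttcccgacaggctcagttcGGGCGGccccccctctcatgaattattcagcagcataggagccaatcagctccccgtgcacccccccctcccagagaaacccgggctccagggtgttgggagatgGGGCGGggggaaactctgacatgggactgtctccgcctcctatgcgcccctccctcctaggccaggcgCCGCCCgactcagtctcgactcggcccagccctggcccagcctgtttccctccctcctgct

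Ephb4 held 4 GC boxes, starting 237, 184, 79 and 11 bases before the start site, while the other 2 windows held 0. The windows had 15 CG pairs for Robo1, 18 for Epha3 and 14 for Ephb4, against a median of 7 over 32851 promoters of the same length. Of 37 promoters listed for 32 of the members, 27 held a GC box, which 35.66% of all promoters did. The TCF/LEF core TCAAAG, or CTTTGA on the other strand, was in 1 of the 37, that of Epha2, and in 16.0% of all promoters. The searched motifs do not overlap each other. A match is a string of letters and no measured site.

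Robo1 read 5.23, 3.89 and 4.59 on the low arrays and 2.21, 2.87 and 3.53 on the high arrays. Every high reading was below every low reading, and both populations were spread over more than 1 log2 unit. The difference was −1.70 (95% interval −2.83 to −0.58), or 3.25-fold lower, which placed Robo1 25th from the lowest of the 22180 genes (limma adjusted p = 0.772). Its size depended on the array set. Between high 3 and the low 2 and 3 average it was −0.71, and between high 1 and low 1 it was −3.03. Those are also the fits without high replicate 1 or low replicate 1 (the same fit) and without high replicate 3. Here and below, such fits keep the set terms, so an array left alone in its set adds nothing to the difference. The fit without high replicate 3 thus compares 1 array of each population. The authors' deposited table gives Robo1 a high to low ratio of 0.333. In these bulk samples, fewer cells of a type and less RNA per cell cannot be told apart.

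Robo2, the neighbouring Slit receptor gene, read 2.28, 2.03 and 1.88 on the low arrays and 1.38, 1.60 and 1.81 on the high arrays. The groups did not overlap, and the difference was −0.47 (−1.02 to 0.092). It was −0.14 without high replicate 1 or low replicate 1 and −0.90 without high replicate 3. Robo3, which in mammals binds Slits poorly, read 3.66, 3.89 and 3.83 in the low and 3.90, 3.76 and 3.63 in the high cells. Its groups overlapped. The difference was −0.026 (−0.52 to 0.47) and came above 0 when each array was centred on its median (0.030) or after quantile normalization (0.038), and also without high replicate 3 (0.24) or low replicate 2 (0.023). On chromosome 16 no protein-coding gene lies between Robo1 and Robo2 in the RefSeq annotation, and 12 lie between Epha3 and Robo1. Epha6, with 4 protein-coding genes between it and Epha3, differed by −0.155 (−0.67 to 0.36), so that the 4 members of this stretch were all below 0. The intervals of Epha6 and Robo2 span 0, and 10253 of all 22180 genes were below 0. Ephb3, on the same chromosome with 285 protein-coding genes between it and Epha6, was above 0 (0.28). The stretch was not among the planned results.

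Of the Slit ligands, Slit2 had readings of 7.90, 7.86 and 8.08 on the low arrays and 7.81, 7.77 and 7.72 on the high arrays. The groups were apart by less than 0.1, and the difference of −0.18 had an interval that spans 0 (−0.65 to 0.29). Slit3 differed by −0.34 (−0.94 to 0.26) and Slit1 by −0.13 (−0.62 to 0.37), both with overlapping arrays. All 3 Slits were below 0, also under each scaling tried, but Slit1 was at 0.030 without high replicate 1 or low replicate 1.

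**Figure D2:**
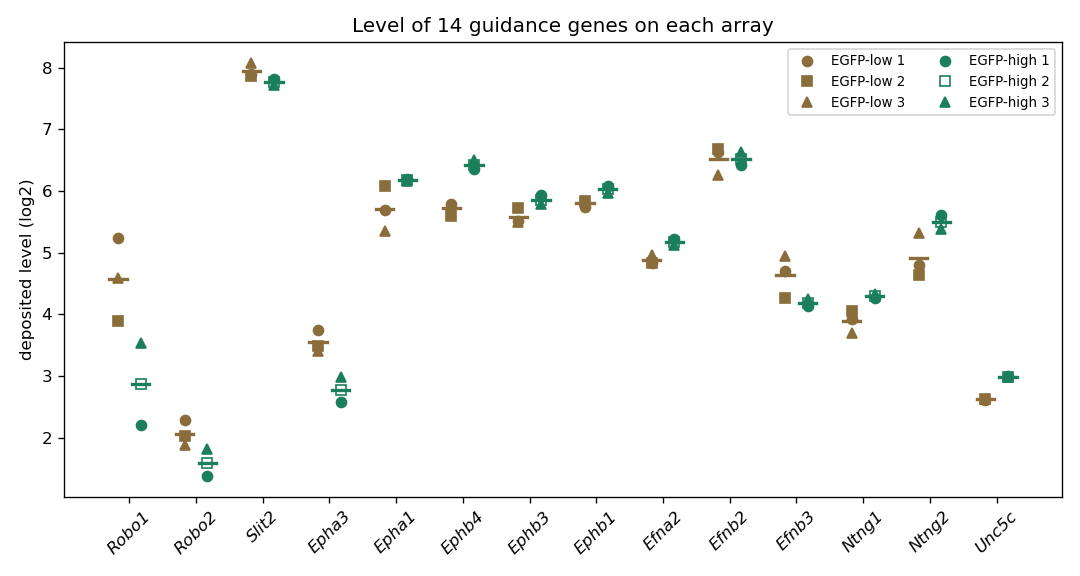
Deposited log2 level of 14 members on each array, in EGFP-low cells (brown) and EGFP-high cells (green), with bars at the group means of 3 arrays. The open square is high 2, which equals the mean of high 1 and high 3. The groups overlap for Efnb2 and are apart for every other gene shown. The genes shown include all members with groups apart except Unc5d. Of all 36 members 14 have groups apart, or 38.89%, against 33.2% of all genes.

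Epha3, whose high-affinity ligand is ephrin-A5, read 3.75, 3.48 and 3.40 on the low arrays and 2.57, 2.78 and 2.99 on the high arrays. All high readings were below all low readings. The difference was −0.76 (−1.31 to −0.22), or 1.70-fold lower, with a limma adjusted p of 0.787, or 0.0382 with group alone as the term. It was −0.45 without high replicate 1 or low replicate 1 and −1.18 without high replicate 3. The authors' deposited table gives Epha3 a ratio of 0.522. Its ligand gene Efna5 read 6.05, 5.73 and 6.06 in the low and 5.79, 5.89 and 5.99 in the high cells, with overlapping groups and a difference of −0.056 (−0.56 to 0.45).

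Epha1, an EphA receptor of epithelia, read 5.69, 6.09 and 5.35 on the low arrays and 6.20, 6.18 and 6.16 on the high arrays. The high readings were all above the low ones, which were the more spread, and the difference was 0.47 (−0.13 to 1.08). Epha2, which is common in epithelia, differed by 0.12 (−0.37 to 0.60). The other 6 EphA receptors lay between −0.28 for Epha8 and 0.0074 for Epha4. They include Epha5 (−0.028) and Epha7 (−0.061), receptors best known in the nervous system, and Epha10 (−0.12), which lacks kinase activity. Arrays overlapped for each of these 6. Of all 9 EphA receptors 3 were above 0, or 4 after centring or quantile normalization.

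All 4 EphB receptors read higher in the EGFP-high cells, or 3 of 4 once the trend of difference with brightness was removed or without high replicate 1 or low replicate 1. Ephb4 read 5.79, 5.60 and 5.78 on the low arrays and 6.36, 6.43 and 6.50 on the high arrays. No arrays overlapped, and the gap between the groups was larger than the range within either. The difference was 0.71 (0.24 to 1.18), or 1.63-fold, with a limma adjusted p of 0.772, or 0.0206 with group alone. The authors' deposited table gives 1.63. Over the alternatives its difference ranged from 0.57 to 0.81.

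Ephb3, a Wnt target in the mouse intestine, read 5.51, 5.73 and 5.49 in the low and 5.93, 5.86 and 5.79 in the high cells. The groups did not overlap and lay 0.28 apart in their means (−0.20 to 0.765). Ephb1 differed by 0.23 (−0.23 to 0.69) with groups that did not overlap, while its dimmer probe set gave −0.077 (−1.38 to 1.23). Ephb6, a receptor without kinase activity, differed by 0.087 (−0.42 to 0.59) with overlapping arrays, and was at −0.021 when the trend of difference with brightness was removed. It was −0.15 without high replicate 1 or low replicate 1 and 0.41 without high replicate 3. Ephb2 is no member, since its probe set is not listed in the platform annotation. It was chosen after its values were seen, because the authors' deposited table names the probe set Ephb2 and gives a fold of 1.67. That probe set read 5.78, 5.80 and 5.96 in the low and 6.32, 6.25 and 6.18 in the high cells, a difference of 0.40 (−0.13 to 0.93).

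Of the ephrin ligands 2 of 8 were above 0, with 1 of 5 ephrin-A and 1 of 3 ephrin-B genes, and 2 of each class after centring. Efnb2, the artery-type ligand of EphB4, read 6.63, 6.69 and 6.26 on the low arrays and 6.42, 6.52 and 6.63 on the high arrays. The groups overlapped, and the difference was −0.0039 (−0.53 to 0.52). Efnb1, whose mutation in humans causes craniofrontonasal syndrome, read 6.62, 6.84 and 6.05 in the low and 6.75, 6.87 and 6.99 in the high cells. These overlapped too, with a difference of 0.36 (−0.28 to 1.01).

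Efnb3, an ephrin of the nervous system midline, read 4.70, 4.26 and 4.95 in the low and 4.13, 4.19 and 4.26 in the high cells. The highest high reading was just under the lowest low reading, and the difference was −0.44 (−1.04 to 0.15). Efna2 had readings of 4.83, 4.83 and 4.97 in the low and 5.22, 5.17 and 5.12 in the high cells. Its groups did not overlap, with a difference of 0.29 (−0.17 to 0.76). Efna1, the ligand first found as a gene induced by tumour necrosis factor, read 6.66, 6.89 and 7.01 in the low and 6.97, 6.78 and 6.58 in the high cells, with an interval of −0.61 to 0.46. Efna1, Efna3 and Efna4, which are next to each other in the RefSeq annotation, differed by −0.075, −0.078 and −0.19, with overlapping arrays for each.

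All 5 netrins had differences above 0, also under each scaling tried, with a median of 0.40, but Ntn1, Ntn3 and Ntn4 were below 0 without high replicate 3. Ntng2, a lipid-anchored netrin that binds Lrrc4-type proteins and not Dcc, read 4.803, 4.65 and 5.31 on the low arrays and 5.62, 5.50 and 5.38 on the high arrays. The groups were just apart, and the difference of 0.58 (−0.025 to 1.18) was under 1.5-fold. Its relative Ntng1 read 3.92, 4.06 and 3.70 in the low and 4.27, 4.30 and 4.33 in the high cells. These did not overlap, with a difference of 0.40 (−0.088 to 0.90). The authors' deposited table gives Ntng1 a fold of 1.56, where the value table gives 1.32.

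Ntn3, a secreted netrin, read 3.59, 2.86 and 3.34 on the low arrays and 3.39, 3.71 and 4.04 on the high arrays. The groups overlapped, and the difference of 0.45 (−0.25 to 1.16) turned to −0.20 without high replicate 3, the fit in which high minus low is high 1 minus low 1. Ntn1, the classical chemoattractant, differed by 0.0081 (−0.47 to 0.49) and Ntn4, a netrin that binds laminin, by 0.13 (−0.38 to 0.65). Without high replicate 3 they were at −0.20 and −0.0076. Ntn1 was also below 0 without low replicate 2 (−0.030) or low replicate 3 (−0.0063). Ntn5 was measured only on probe sets that carry a second symbol, so it is not counted.

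Among Unc5 receptors, which carry a death domain, Unc5c read 2.62, 2.63 and 2.63 on the low arrays and 3.0, 2.99 and 2.98 on the high arrays. The readings within each population were nearly equal, and Unc5c was among the dim genes, below the median of all named genes. The difference of 0.37 (−0.086 to 0.82) had a limma adjusted p of 0.854, or 0.0303 with group alone. Unc5b, known in vascular endothelium, read 4.96, 5.22 and 4.92 in the low and 5.21, 5.14 and 5.07 in the high cells, which overlapped and differed by 0.11 (−0.39 to 0.60). Unc5d differed by 0.16 (−0.32 to 0.64) and Unc5a by −0.036 (−0.64 to 0.57). Unc5a was above 0 after centring (0.020) and after quantile normalization (0.0042), at −0.44 without high replicate 1 or low replicate 1 and at 0.51 without high replicate 3. Of the netrin receptors outside the members, Dcc differed by −0.35 (−0.83 to 0.13) and Neo1 by 0.18 (−0.32 to 0.69).

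With group alone as the term, limma called 3 members, Ephb4 and Unc5c as higher and Epha3 as lower, which is 8.33% of 36 against 6.67% of all genes. That fit counts 4 residual degrees of freedom where the columns leave fewer. High and low readings were fully apart for 14 members, 9 higher and 5 lower, or 38.89%, against 33.2% of all genes. The authors' deposited table, which holds 2.74% of the probe sets, lists 4 members. That share is over all probe sets, named or not, so it is not a share of genes to set beside the 4.

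**Figure D3:**
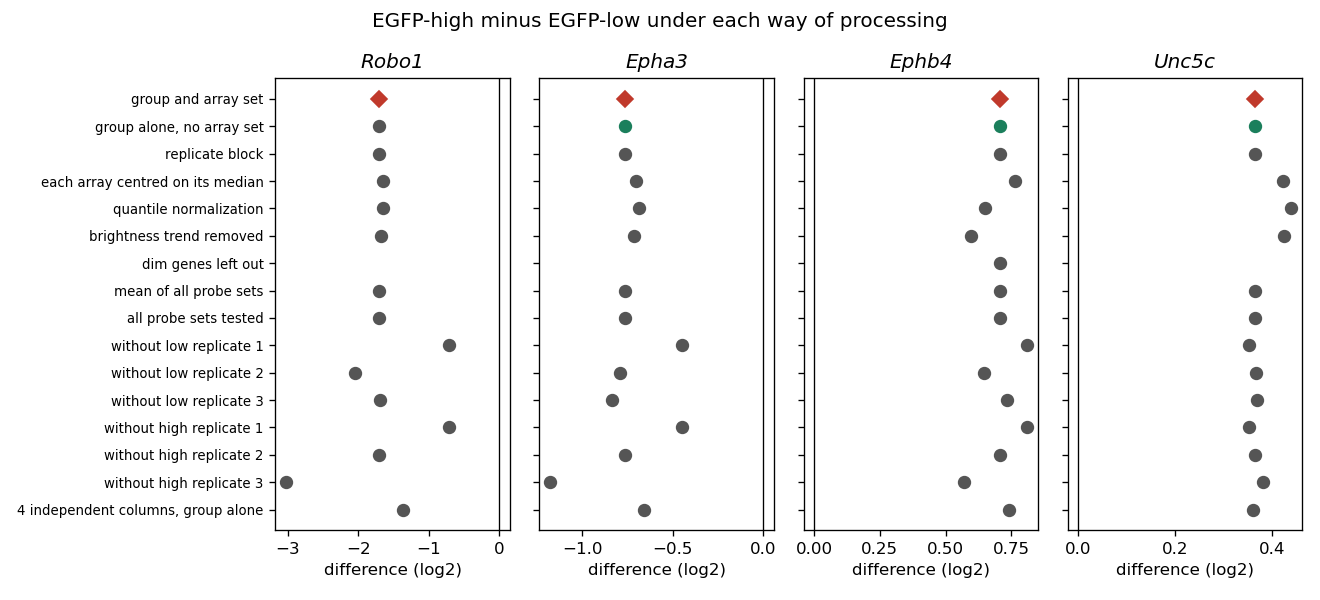
Difference of EGFP-high minus EGFP-low cells (log2) for Robo1, Epha3, Ephb4 and Unc5c under each way of processing. The red diamond is the fit with group and array set, green points have a limma adjusted p under 0.05, and a missing point is a gene left out as dim. Robo1 ranged from −3.03 to −0.71 and Ephb4 from 0.57 to 0.81.

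The signalling partners of these families were described from lists of 113 genes in all, of which 0 passed the threshold by limma with the array set (smallest adjusted p = 0.772). At an unadjusted p under 0.05 there were 5, or 4.42%, against 5.92% of all genes. Of 34 partners of Eph and ephrin, 20 were above 0, with a median of 0.092 that came to 0.0026 after removal of the brightness trend. None of the 34 reached 1.5-fold. With group alone 4 were called, or 11.76% against 6.67% of all genes: the exchange factors Arhgef5 (0.42), Vav2 (0.41) and Arhgef19 (0.38) as higher and the exchange factor Fgd5 (−0.33) as lower. They were named after their values were seen.

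Of 23 partners of Slit and Robo, 12 were above 0, with a median of 0.0069 that was −0.018 after quantile normalization and −0.081 with the brightness trend removed. The syndecans Sdc3 and Sdc1, heparan sulfate proteoglycans of the cell surface, were the 2 of 23 that reached 1.5-fold, both lower, as were 2.7% of all genes. Sdc3 read 5.94, 5.87 and 5.67 on the low arrays and 4.93, 5.04 and 5.16 on the high arrays. No arrays overlapped, and the difference was −0.78 (−1.27 to −0.29; adjusted p = 0.772, or 0.021 with group alone). Sdc1 read 8.39, 8.49 and 7.76 in the low and 7.26, 7.43 and 7.60 in the high cells, a difference of −0.79 (−1.44 to −0.14). Between the arrays of a set, Sdc1 differed by −1.14 (high 1 and low 1) and by −0.53 (high 3 against low 2 and 3). Robo4, the endothelial Robo, differed by −0.25 (−0.72 to 0.23).

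Of 27 netrin partners, 20 were above 0, with a median of 0.17 that came to 0.086 after removal of the brightness trend, and none reached 1.5-fold. Semaphorins, plexins and neuropilins form a further guidance system, in which 21 of 31 were above 0 with a median of 0.11, or 15 of 31 and −0.0020 after removal of the brightness trend. Sema4g was 0.61 higher (0.083 to 1.15) and Sema6a 0.58 higher (0.053 to 1.12). The semaphorin receptors Plxnd1 (−0.82, −1.53 to −0.11) and Plxnc1 (−0.61, −1.45 to 0.22) read lower, as did Sema3d (−0.66, −1.83 to 0.50). Plxnd1 differed by −1.57 between high 1 and low 1 and by −0.26 between high 3 and the low 2 and 3 average.

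**Figure D4:**
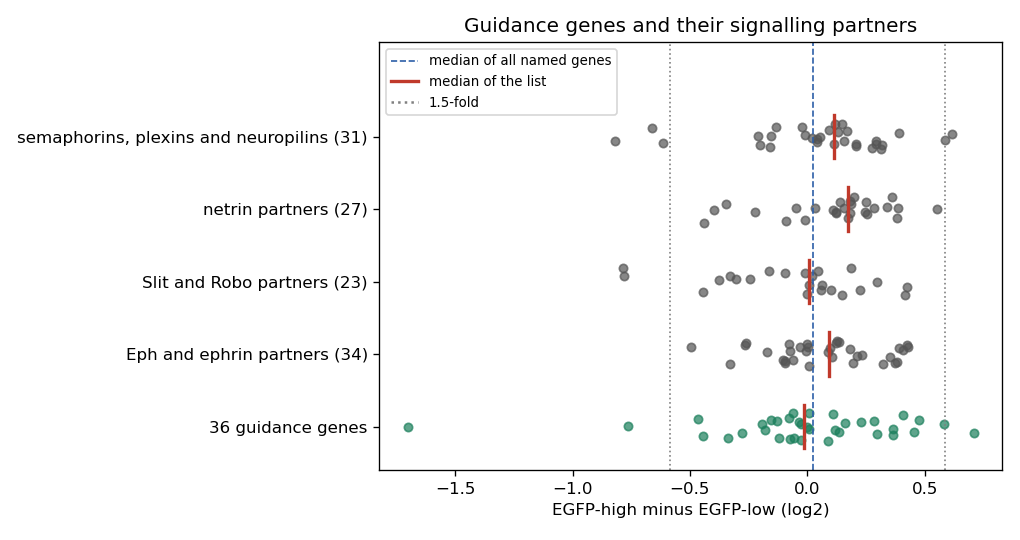
Differences of EGFP-high minus EGFP-low cells (log2) for the 36 guidance genes and 4 lists of partner or related guidance genes, 1 point per gene with random vertical offset. Red bars are list medians, the dashed line is the median of all named genes (0.025) and dotted lines mark 1.5-fold. Robo1 stands at −1.70, and list medians lie between −0.015 and 0.17.

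Most markers of several other ovarian cell types read lower in the EGFP-high cells, in the direction of Robo1 and Epha3, with Cyp11a1 the gene that passed the threshold (limma adjusted p = 0.014). That value and those below are from the brightest probe set of each gene. With the mean of all probe sets per gene, 0 genes passed. The lowest difference was then −1.93 among stroma markers and −2.76 among theca and luteal markers, the value that Hsd3b1 had with its brightest probe set. Cyp11a1 was thus no lower than −2.76 in that setting, against −4.74 with its brightest probe set. Leukocyte markers were below 0 in 12 of 13, and their summed linear level ran from 249.5 to 621.2 on the low arrays and from 161.5 to 170.1 on the high arrays. Granulosa markers were below 0 in 7 of 8 (234.8 to 409.5 in the low and 144.0 to 206.2 in the high cells). Stroma markers were below 0 in 9 of 10 (737.4 to 1023.4 and 641.7 to 649.2). Such sums follow the brightest probe sets. The stroma marker above 0 was Thy1, at 0.53 (0.032 to 1.03), with every high reading above every low reading. Its limma adjusted p was 0.84, or 0.0451 with group alone. Theca and luteal markers were below 0 in 5 of 7 (1087.4 to 1404.8 and 779.4 to 857.4), with 3 lower by 1.5-fold or more, Cyp11a1 (−4.74), Hsd3b1 (−2.76) and Ptgfr (−1.12). Cyp11a1 and Hsd3b1 encode steroidogenic enzymes. Star, which carries cholesterol into mitochondria and was singled out after its values were seen, went the other way, with means of 8.74 and 9.07 (0.33, −0.12 to 0.79, limma adjusted p = 0.0448 with group alone). Of the other lists, Lyz2 of macrophages differed by −3.77, the collagen gene Col1a2 by −3.08 and Nr5a2 of granulosa cells by −2.29. Nr5a2 differed by −4.10 between high 1 and low 1 and by −0.94 between high 3 and the low 2 and 3 average. Oocyte markers were below 0 in 6 of 10, or 5 of 10 after centring or quantile normalization. Of these 10, 4 were lower by 1.5-fold or more and 0 higher, with Dppa3 at −1.93, Zp2 at −0.90 and Nlrp5 at −0.79, while their summed levels overlapped (195.6 to 216.3 and 201.3 to 212.7). Gdf9 (0.43, −0.11 to 0.97) and Ooep (0.37, −0.093 to 0.84) went the other way, with every high reading above every low reading. Log2 readings have no 0, so none of these markers can be called absent.

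In the direction of Ephb4, surface epithelium markers were above 0 in 14 of 15, with summed levels of 10646.7 to 10983.5 in the low and 12680.9 to 13090.1 in the high cells. The sum over all named genes was also higher, at 1268725.7 to 1321886.4 in the low and 1368981.5 to 1381336.5 in the high cells. With the brightness trend removed, 12 of the 15 were above 0 and their median was 0.091 in place of 0.22. Endothelial markers were mixed, with 7 of 11 above 0 (382.1 to 418.9 and 419.9 to 485.1) but 0 higher and 2 lower by 1.5-fold or more. These were Cdh5, the cadherin of endothelium, at −0.69 (−1.43 to 0.046) and Emcn, a sialomucin of endothelium, at −0.61 (−1.20 to −0.019). The groups overlapped for Cdh5, which differed by −1.47 between high 1 and low 1 and by −0.11 between high 3 and the low 2 and 3 average. Esam had the largest difference above 0 of this list, at 0.40 (−0.18 to 0.97), with overlapping groups. Pecam1 (0.27) and Flt1 (0.29) had every high reading above every low reading. Pericyte markers were above 0 in 6 of 9 and neural markers in 4 of 8, or 6 of 8 after quantile normalization, with summed levels that overlapped between the populations. The part of any of these cell types in the differences of Robo1, Epha3 or Ephb4 was not tested.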

How the data were processed

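Labelled RNA was read on 6 Affymetrix Mouse Gene ST 2.0 arrays, and the log2 value table deposited by the authors covers 41345 probe sets. The submitters' processing notes name Affymetrix Expression Console and RMA and give no version. Neither a genome build nor an annotation version was stated there. A second deposited table, of 1134 probe sets, holds per probe set the ratio (high over low, linear), a signed fold (a score) and sums of squares (scores). Its p-values are blank, and its log2 ratios differed from the value table by a median of 0.0813. It was used for ratios alone. There were 0 unused columns of samples.

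Of the probe sets, 23521 carried 1 symbol in the platform annotation, 1820 several and 16004 were unlisted. The brightest probe set was kept for 1082 genes with more than 1. Testing used limma 3.58.1 in R 4.3.3, two-sided, and was tested on simulated data. The simulation assumed the same array sets, so it could not check whether the inferred sets are right. No filter or further normalization was applied. The array sets were inferred in earlier work on these values, and the relations behind them were checked again on all probe sets. The members, lists and tests were chosen with earlier results of these data known. Members were named in full at 1.5-fold or more, at an unadjusted p under 0.05, or as the brightest of a family, and the others by value or range. Partners were named at 1.5-fold or an unadjusted p under 0.05, with Dcc, Neo1 and Robo4 always named, and markers by the size of their difference. The markers Star, Gdf9, Ooep, Pecam1 and Flt1 were named beyond that rule, with their values known. Of 217 list entries, 206 were matched. The number of arrays limits the precision. Alternatives covered the terms of the fit, scaling, brightness, probe set choice and each array left out with the set terms kept. Promoter sequences are from RefSeq (GRCm38.p6).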

Additional observations from a re-analysis of the deposited data

How the results depend on the processing

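Limma called 0 of the 36 members and 0 of the 113 partner genes with the array set, and 3 and 5 with group alone. Under every other setting run, single arrays left out included, both counts were 0. With genes below the median brightness left out, 8 members had arrays that did not overlap and 1 was at 1.5-fold or more, in place of 14 and 3, with 19 of the 36 members left. The count at 1.5-fold or more ran from 3 to 5 with 1 array left out, and was 5 without low replicate 2 and 5 without high replicate 3. These member and partner counts moved by over 1.5 times under no other setting. With the set terms kept, the fit without high replicate 3 compares high 1 with low 1 alone. Those without high replicate 1 or low replicate 1 compare high 3 with low 2 and low 3. Of all genes, 1 was called with the array set, 1479 with group alone, 23 without high replicate 3, 4 with the replicate block, 3 without low replicate 3 and 0 with the mean of all probe sets per gene. The median over members ran from −0.030 with the brightness trend removed to 0.087 with dim genes left out. All genes had a median difference of 0.025, or 0.081 with arrays centred and −0.0028 with the brightness trend removed, and members above 0 numbered 17, 22 and 16.

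Of the 36 members, 20 kept their sign in all alternatives run and 16 changed it in at least 1, Ntn3 among them. Robo1, Epha3, Ephb4 and Unc5c kept theirs. The alternatives with an array left out include those that compare the arrays of a single set, so a changed sign can rest on that set. With the 4 independent columns alone, an alternative chosen after seeing the data, Robo1 was at −1.37 (limma adjusted p = 0.679) and 0 members were called.

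The replicate numbers of the labels were shared between populations. With the number as a replicate block, 0 members were called and Robo1 had a limma adjusted p of 0.154. High 2 has no deviation from its group mean beyond rounding, and same-numbered arrays correlated at −1, −0.0065 and −0.295. The −1 follows from the relations between the columns, and high 1 and low 1 do share an array set. The numbers as a whole were not taken to pair the arrays.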
